A study of Mus musculus with 11 samples.

Results

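The matrix metalloproteases (Mmp genes), the related ADAMTS proteases (Adamts genes) and their tissue inhibitors (Timp genes) were followed in mouse back skin with dermatitis. Members were all genes whose symbol begins with Mmp, Adamts or Timp and a digit, which gave 46 of the 24411 genes in the files: 23 Mmp, 19 Adamts and 4 Timp. Total RNA was sequenced from 11 skin samples of hosts carrying the EGFP transgene Tg(act-EGFP)Y01Osb, whose age the labels give as 16-18 without a unit. All hosts were irradiated with 10 Gy and received femoral marrow cells sorted from Pdgfra-Cre;tdTomato donors, where a Cre recombinase under Pdgfra control switches the red tdTomato label on for good. The donor cells were tdTomato-negative in 7 samples and tdTomato-positive in 4 samples, called the negative and positive groups here. After 6 weeks of recovery all skin received MC903, a vitamin D analog that induces a dermatitis that resembles human atopic eczema, 6 times, and was taken on day 14. There was no skin without MC903 and none without a transplant among these samples. The libraries hold RNA of whole skin, host cells included, and the labels do not state that each sample is a separate animal, so the p-values cover the spread among samples, which may be technical.

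Mmp genes encode zinc proteases that are made as inactive precursors and together cut most proteins of the extracellular matrix, with the collagens, gelatin, elastin and basement membrane among their substrates. Adamts genes encode secreted relatives that process procollagens, cut the large proteoglycans aggrecan and versican, or act on fibrillin and von Willebrand factor. The 4 TIMP proteins block the active site of these enzymes, and TIMP-3 is the one that also blocks several ADAMTS proteases and stays bound to the matrix. In skin, dermal fibroblasts, keratinocytes at wound edges, macrophages, neutrophils and hair follicles are known sources of different members.

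Skin of the positive group had higher mean levels of many Mmp transcripts, while the Adamts genes were mixed and Timp3 was lower. No member passed edgeR's quasi-likelihood test at a Benjamini-Hochberg adjusted p of 0.05. Neither did any of the 14588 genes tested (0%). Of the 46 members 38 had enough counts to be tested, and in 31 of these the fitted log2 fold change, positive over negative, was above 0, against 48.6% of all tested genes. All 17 tested Mmp genes lay above 0, as did 11 of 17 Adamts genes and 3 of 4 Timp genes. In the fit with the hair score described below, Mmp11, Mmp15 and Mmp17 were not above 0. Medians on the log2 scale were 0.64 for Mmp, 0.16 for Adamts and 0.39 for all tested members, beside -0.01 for all tested genes. At an unadjusted p under 0.05 there were 10 members higher in the positive group, 26.3% of those tested, where 7.05% of all tested genes were. The 10 were Mmp2, Mmp3, Mmp8, Mmp9, Mmp10, Mmp13, Mmp14, Mmp19, Adamts4 and Timp4. Mmp3 and Mmp10 share reads, as described below, but are counted here as separate members. Only 1 member, Timp3, was lower at that level, 2.63% of those tested, beside 9.73% of all genes. The groups did not overlap in 1.67% of all tested genes and in 0 members. The count of 11 rested on single samples. Without negative replicate 1 it was 22, of which 19 were higher and 3 lower, where 10.6% and 12% of all tested genes were. Without positive replicate 1 it was 4, all higher, beside 3.85% of all genes higher and 5.66% lower. Without positive replicate 2 it was 7, all higher, beside 4.02% and 5.08%. Without positive replicate 4 it was 17, of which 12 were higher and 5 lower, beside 8.49% and 11.6%. With limma-voom it was 7, all higher, beside 7.06% and 8.29%. Mmp9, Mmp10 and Mmp13 were not among those 7 (limma-voom unadjusted p = 0.219, 0.343 and 0.138). Voom with sample quality weights put 12 members past the adjusted threshold, and 14.3% of all tested genes.

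**Figure D1:**
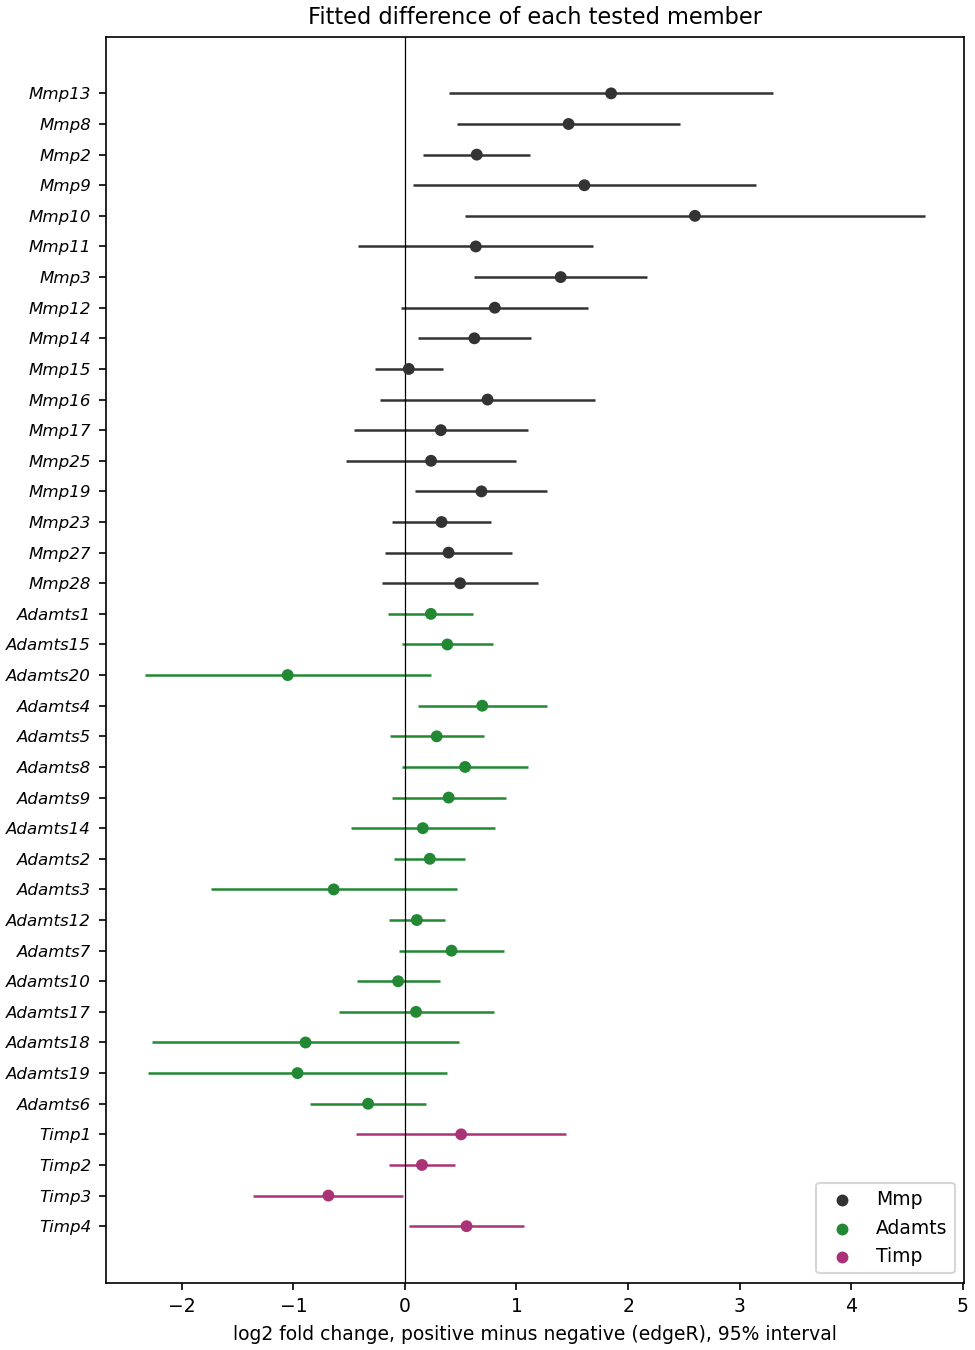
Fitted log2 fold change (positive minus negative, horizontal axis) of the 38 tested members with 95% intervals from edgeR, ordered by role from top to bottom, with Mmp in black, Adamts in green and Timp in purple. All 17 Mmp points lie above 0, the Timp3 point lies at -0.69, and the widest interval belongs to Mmp10.

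The samples held 7190752 to 9749842 expected counts each. Samples also differed in the level of hair follicle genes, unevenly between the groups. The 27 hair shaft and root sheath markers, all tested and none with a fold change above 0, summed to 469.5 to 51004 normalized counts (CPM, scaled to a common library size) in the negative and 624.9 to 15461 CPM in the positive group. A hair score, the mean z-score of these markers, was below 0 in negative replicates 1 and 7 (-0.53 and -1.45) and in positive replicates 1 to 3 (-0.57, -1.26 and -1.06). It was 0.71 to 1.18 in negative replicates 2 to 6 and 0.46 in positive replicate 4. Fibroblast markers (11 of 11 tested with a fold change above 0, none at 0 counts) summed to 10755 to 26889 CPM in the negative and 12576 to 20451 CPM in the positive group, and the highest sum was that of negative replicate 1. Macrophage and monocyte markers (12 of 12 above 0, none at 0 counts) summed to 756 to 1248 CPM in the negative group and to 2273, 1779, 883 and 1115 CPM in positive replicates 1 to 4. Neutrophil markers summed to 58.9 to 417 CPM in the negative and 51.9 to 483 CPM in the positive group. All 5 of the 10 neutrophil genes with enough counts for the test lay above 0. The others, Ngp, Ltf, Camp, Mpo and Elane, had too few counts, with Elane at 0 in all 11 samples. Keratinocyte markers (7 of 9 above 0, none at 0 counts) summed to 12441 to 43006 CPM in the negative and 22883 to 38362 CPM in the positive group, with the highest sum in negative replicate 7. Endothelial (9 of 9 above 0), adipocyte (7 of 7) and skeletal muscle markers (9 of 9) had median sums of 281, 756 and 3845 CPM in the negative and 417, 935 and 4859 CPM in the positive group, with overlapping ranges. In whole skin, fewer cells of a type and less RNA per cell cannot be told apart.

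By level per transcript length (TPM, the length-normalized share of transcripts), 4 members had the highest means over all 11 samples. Mmp2, gelatinase A, averaged 184 TPM over all 11 samples, and Mmp14, the membrane-bound protease that activates it, averaged 181 TPM. Timp2, which takes part in that activation and inhibits both, averaged 140 TPM, and Timp3 129 TPM. The levels of Mmp2 and Mmp14 lay within their spread between samples (152 ± 56.4 and 151 ± 60.6 TPM in the negative group, SD, n = 7). In the positive group alone Timp3 and Mmp3 both averaged 95.1 TPM, so that Timp3 did not stand above Mmp3 there. Next over all samples came Mmp3 at 57.7, Mmp11 at 52.0, Timp1 at 42.8, Adamts2 at 37.9, Adamts1 at 33.5 and Mmp13 at 32.8 TPM. These 6 were not separated from each other beyond their spread: Mmp11 alone had 43.5 ± 36.7 TPM (SD, n = 7) in the negative group. All Adamts genes other than Adamts1, Adamts2 and Adamts5 averaged under 12 TPM.

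The collagenases, stromelysin-1 and stromelysin-2 and the macrophage elastase lie side by side on chromosome 9, in a cluster of 10 Mmp genes from Mmp13 (7272514 to 7283333 on GRCm38.p6) to Mmp7. The cluster was singled out after the values were seen. Of the 10 genes 6 had enough counts to be tested, with log2 fold changes from 0.39 (Mmp27) to 2.60 (Mmp10). Their start regions are shown because Mmp10, Mmp13 and Mmp9, with the largest edgeR fold changes of all tested members, include 2 from this cluster. None of these genes had an unadjusted p under 0.05 with limma-voom. A further reason is that AP-1, the Fos and Jun transcription factor, is a textbook regulator of such genes. RefSeq start regions on GRCm38.p6 (250 bases before to 50 after each annotated start) were at hand for 32 of the 46 members, in 35 windows, since some genes have more than 1 start. These windows were searched on both strands for the AP-1 motif TGAGTCA, which reads TGACTCA on the other strand. The motif was found in 7 genes, all of them in the cluster (7 of its 12 windows), and in 0 of the 23 windows searched for members elsewhere. The members without a window, Mmp9, Mmp2 and Adamts4 among them, all lie outside the cluster and were not searched. It was present in 5.2% of all 32851 RefSeq windows. The TATA box letters TATAAA, searched on both strands, were found in 9 of the 10 cluster genes (9 of 12 windows), in 2 other members and in 13.6% of all windows. In the cluster the first match lay from 123 bases before the start (Mmp7) to 4 after it (Mmp12), and that of Mmp8 was on the other strand. Matches are a description of letters, not of binding.

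The 120 bases before the annotated start, 5′ to 3′ on the gene's strand, are printed for 5 cluster genes with the motif and for Mmp8, a cluster gene without it, with the AP-1 letters in capitals. Mmp1a and Mmp7, which also hold the motif, are not printed. Both, and the printed Mmp1b, had too few counts to be tested, while Mmp8 had a log2 fold change of 1.47. Mmp13 is at chr9:7272394-7272513 (+), Mmp12 at chr9:7347254-7347373 (+, its downstream start), Mmp1b at chr9:7388027-7388146 (-), Mmp3 at chr9:7445702-7445821 (+), Mmp10 at chr9:7502222-7502341 (+) and Mmp8 at chr9:7558309-7558428 (+).
Mmp13: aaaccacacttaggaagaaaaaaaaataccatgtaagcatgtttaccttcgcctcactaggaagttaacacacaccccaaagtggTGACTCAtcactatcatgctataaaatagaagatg
Mmp12: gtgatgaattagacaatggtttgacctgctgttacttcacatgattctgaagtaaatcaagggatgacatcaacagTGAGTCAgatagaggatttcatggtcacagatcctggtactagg
Mmp1b: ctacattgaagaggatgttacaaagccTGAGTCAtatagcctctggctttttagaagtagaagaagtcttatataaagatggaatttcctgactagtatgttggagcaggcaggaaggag
Mmp3: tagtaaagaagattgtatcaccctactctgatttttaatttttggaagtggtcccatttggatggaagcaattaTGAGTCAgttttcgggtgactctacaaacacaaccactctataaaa
Mmp10: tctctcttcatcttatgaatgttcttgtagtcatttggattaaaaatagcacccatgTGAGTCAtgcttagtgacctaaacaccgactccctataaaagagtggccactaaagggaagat
Mmp8: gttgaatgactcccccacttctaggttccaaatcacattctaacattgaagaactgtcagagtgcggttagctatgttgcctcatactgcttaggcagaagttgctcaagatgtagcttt

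The motif starts 35 bases before the annotated start in Mmp13, 44 in Mmp12, 46 in Mmp3, 63 in Mmp10 and 93 in Mmp1b, on the same side of the start in all 5. The upstream start of Mmp12 has no match in its window. For contrast, the same stretch before the start of Mmp14 (chr14:54431478-54431597, +) and of Timp3 (chr10:86300292-86300411, +) holds neither motif in these letters.
Mmp14: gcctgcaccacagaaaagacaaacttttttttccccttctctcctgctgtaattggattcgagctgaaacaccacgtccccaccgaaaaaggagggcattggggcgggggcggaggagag
Timp3: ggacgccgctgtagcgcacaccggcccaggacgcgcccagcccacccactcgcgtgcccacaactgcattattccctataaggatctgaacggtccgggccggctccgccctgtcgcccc

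Mmp13, the main interstitial collagenase of mice, had 10.7, 59.7, 10.6, 40.4, 15, 17.9 and 33.9 CPM in negative replicates 1 to 7. Positive replicates 1 to 4 were at 201, 103, 6.68 and 77.3 CPM. Positive replicates 1, 2 and 4 lay above all negative samples, and positive replicate 3 was the lowest of all 11. The fitted log2 fold change was 1.85 ± 0.67 (SE; edgeR adjusted p = 0.254), and it was 1.21 without positive replicate 1.

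Mmp3, stromelysin-1, an activator of other Mmp precursors, had 39.8, 34.0, 23.3, 39.9, 16.3, 45.2 and 59.4 CPM in negative replicates 1 to 7 and 143, 119, 36.7 and 90.1 CPM in positive replicates 1 to 4. Again positive replicates 1, 2 and 4 lay above all negative samples and positive replicate 3 lay among them. Its log2 fold change was 1.40 ± 0.36 (SE; edgeR adjusted p = 0.248), and it was the 1 member that DESeq2 called (adjusted p = 0.0403), where DESeq2 called 0.466% of all tested genes. Over 23 alternatives its adjusted p ranged from 0.0218 to 0.670.

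Mmp10, stromelysin-2, a keratinocyte product at wound edges, had 0.90, 1.67, 0, 2.99, 0, 0.36 and 3.99 CPM in negative replicates 1 to 7. Positive replicates 1 to 4 were at 18.9, 8.56, 0 and 7.56 CPM. The split was that of Mmp3, with a log2 fold change of 2.60 ± 0.95 (SE) and an edgeR adjusted p of 0.254. Mmp10 and Mmp3 share reads: their expected counts were not whole numbers in the 8 samples in which Mmp10 had counts, but added up to whole numbers (within 0.005) in all 11 samples. Mmp10 took 0% to 11.7% of the sum, so its own level is uncertain. The sum of both was 16.3 to 63.4 CPM in the negative group and 162, 128, 36.7 and 97.6 CPM in positive replicates 1 to 4, which is the pattern of Mmp3 alone.

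Mmp8, the collagenase stored by neutrophils, was low, at 3.22, 2.09, 0.94, 1.5, 1.21, 1.55 and 0.80 CPM in negative replicates 1 to 7 and 9.72, 3.32, 3.19 and 1.76 CPM in positive replicates 1 to 4. Only positive replicates 1 and 2 lay above all negative samples. The log2 fold change was 1.47 ± 0.46 (SE; edgeR adjusted p = 0.248), and it was 0.77 without positive replicate 1.

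Mmp12, the macrophage elastase, had 27.3, 33.2, 12.5, 16.8, 30.4, 17.4 and 11.8 CPM in negative replicates 1 to 7. Positive replicates 1 to 4 were at 75.4, 30.0, 23.3 and 20.5 CPM, so only positive replicate 1 lay above the negative group. That sample also had the highest macrophage marker sum, 2273 CPM. Positive replicate 2, with a macrophage marker sum of 1779 CPM, had Mmp12 at 30.0 CPM, above the negative median of 17.4 CPM and within the negative range. Negative replicate 7, with a sum of 1248 CPM, had the lowest Mmp12 of all 11 samples. The part of these cells in the result was not tested. The fitted log2 difference of 0.81 ± 0.38 (SE; edgeR adjusted p = 0.312) became 0.21 without positive replicate 1.

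**Figure D2:**
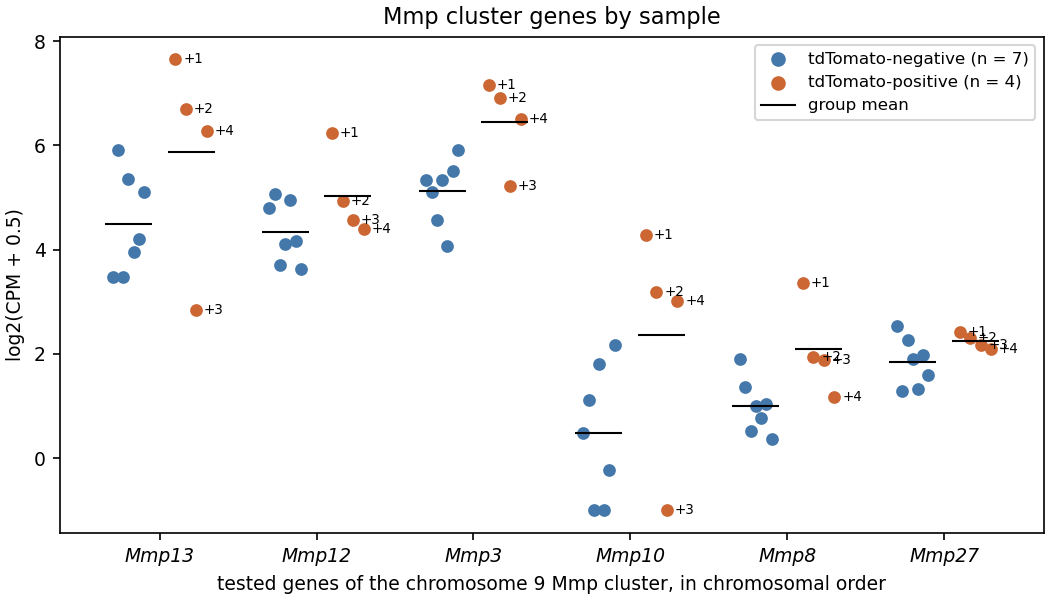
Level as log2(CPM + 0.5) of the 6 tested genes of the chromosome 9 cluster in their order along the chromosome, with 7 negative samples in blue, 4 positive samples in orange labelled by replicate, and the group mean of these log values as a bar. In Mmp13, Mmp3 and Mmp10 positive replicates 1, 2 and 4 lie above all blue points and positive replicate 3 lies with or under them, while in Mmp12 only positive replicate 1 stands above.

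Of the remaining cluster genes 4 were at or near 0. Mmp1b, a mouse relative of interstitial collagenase, had 14, 5, 1 and 6 counts in positive replicates 1 to 4 and 0 to 3 counts in the negative samples, too few to be tested. Mmp1a had counts in 2 samples only, 2.66 in negative replicate 7 and 1 in positive replicate 1. Mmp20, the enamel protease, had at most 4 counts. Mmp7, matrilysin, had 0 counts in all 11 samples, which allows up to 3 counts in each. Mmp27, a little studied relative in the same cluster, had enough counts to be tested, with 1.95 to 5.28 CPM in the negative and 3.78 to 4.86 CPM in the positive group.

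Mmp9, gelatinase B, lies outside the cluster, on chromosome 2 (164940326 to 164955850), and is stored by neutrophils and made by macrophages and keratinocytes. It had 5.28, 7.53, 8.62, 21.2, 8.35, 3.93 and 37.4 CPM in negative replicates 1 to 7 and 68.7, 50.5, 2.47 and 39.8 CPM in positive replicates 1 to 4. As with Mmp13, the lowest of all 11 values was in positive replicate 3 and the other 3 positive samples lay above the negative group. Positive replicate 3 was also lowest in the neutrophil marker sum, at 51.9 CPM, and positive replicate 1 highest, at 483 CPM. The next highest neutrophil sum, 417 CPM, was in negative replicate 2, where Mmp9 was at 7.53 CPM. The log2 fold change of Mmp9 was 1.61 ± 0.71 (SE; edgeR adjusted p = 0.287).

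Mmp2 and Mmp14, the abundant stromal pair, followed other samples. Mmp2 had 475, 224, 199, 265, 248, 244 and 281 CPM in negative replicates 1 to 7 and 478, 459, 499 and 292 CPM in positive replicates 1 to 4. Negative replicate 1 reached the level of positive replicates 1 to 3, and positive replicate 4 lay near negative replicate 7. Its log2 fold change was 0.64 ± 0.22 (SE; edgeR adjusted p = 0.248). Mmp14 had 415, 212, 187, 233, 176, 179 and 216 CPM in negative replicates 1 to 7. Values in positive replicates 1 to 4 were 374, 404, 409 and 238 CPM, so that its highest value was in negative replicate 1. The log2 fold change was 0.62 ± 0.23 (SE; edgeR adjusted p = 0.255). The 4 samples with the highest levels of both genes, negative replicate 1 and positive replicates 1 to 3, had hair scores below 0 and the 4 highest fibroblast marker sums. Negative replicate 7, with the lowest hair score of all, did not share those levels. The part of either cell type was not tested. Fitted beside the hair score, the group difference was 0.33 for Mmp2 and 0.30 for Mmp14 on the log2 scale.

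Mmp11, stromelysin-3, a stromal protease of remodelling tissue, had 155, 58.0, 24.0, 61.2, 28.6, 25.8 and 44.1 CPM in negative replicates 1 to 7 and 83.4, 133, 91.4 and 44.3 CPM in positive replicates 1 to 4. The groups overlapped over most of their range, and the log2 fold change was 0.64 ± 0.48 (SE; edgeR adjusted p = 0.50). It was 1.13 without negative replicate 1, 0.37 without positive replicate 2 and, beside the hair score, -0.05. Mmp19, a protease of vessels and epidermis, had 35.4, 30.7, 15.5, 25.2, 35.6, 31.4 and 32.8 CPM in negative replicates 1 to 7. Positive replicates 1 to 4 were at 72.0, 58.8, 28.6 and 30.7 CPM, where only the first and the second stood above the negative samples. Its log2 fold change was 0.69 ± 0.27 (SE; edgeR adjusted p = 0.263), or 0.41 without positive replicate 1, and part of its reads were divided with other genes, since its expected counts were not whole numbers in any sample.

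The other tested Mmp genes had log2 fold changes from 0.03 to 0.74, none at an unadjusted p under 0.05. Among the membrane-bound forms, Mmp15 averaged 5.89 TPM over all samples, with a mean of 15.3 ± 2.04 CPM in negative (SD, n = 7) and 15.6 ± 3.08 CPM in positive samples (SD, n = 4). Mmp16 averaged 6.68 ± 5.16 CPM in the negative (SD, n = 7) and 11.2 ± 4.0 CPM in the positive samples (SD, n = 4), and its highest value, 17.9 CPM, was again in negative replicate 1. Mmp17 and Mmp25, which are held in the membrane by a lipid anchor, averaged 1.2 and 1.16 TPM. Mmp24 had 6.92 to 12.2 counts per sample, and Mmp21 at most 6, both too few to be tested. Mmp23 and Mmp28 (epilysin, an epidermal member) averaged 10.4 and 4.20 TPM, with log2 fold changes of 0.33 and 0.49.

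Among the Adamts genes that cut proteoglycans, Adamts4, an aggrecanase induced by inflammatory cytokines, had 20.2, 13.9, 9.03, 11.3, 14.3, 12.6 and 18.5 CPM in negative replicates 1 to 7. Levels in positive replicates 1 to 4 were 32.7, 30.2, 14.7 and 14.9 CPM. Positive replicates 1 and 2 stood above the negative group and the other 2 lay within it. The log2 fold change was 0.69 ± 0.27 (SE; edgeR adjusted p = 0.256). It was 0.38 beside the hair score.

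Adamts5, the other major aggrecanase, had 80.6, 106, 84.6, 80.9, 121, 116 and 111 CPM in negative replicates 1 to 7 and 152, 135, 69.9 and 131 CPM in positive replicates 1 to 4. Adamts1, a versican-cutting protease, had 65.9, 93.1, 83.9, 86.8, 102, 117 and 117 CPM in the negative and 135, 122, 75.9 and 114 CPM in the positive replicates, in the same order. Both had their highest value in positive replicate 1, and positive replicate 3 was the lowest of all samples for Adamts5 and the second lowest for Adamts1. The log2 fold changes were 0.28 ± 0.19 (SE; edgeR adjusted p = 0.448) and 0.23 ± 0.17 (SE; edgeR adjusted p = 0.494). Without positive replicate 1 they were 0.16 and 0.13, and without positive replicate 3 they were 0.49 and 0.39.

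Adamts2, the main procollagen I N-proteinase of skin, had the highest mean TPM of the Adamts genes, but lay above Adamts1 in 6 of the 11 samples only. Adamts2 had 224, 134, 134, 154, 157, 154 and 147 CPM in negative replicates 1 to 7 and 194, 198, 203 and 141 CPM in positive replicates 1 to 4. The highest value was in negative replicate 1 and the 3 next in positive replicates 1 to 3, as for Mmp14. Its log2 fold change was 0.22 ± 0.15 (SE; edgeR adjusted p = 0.434). It was 0.34 without negative replicate 1 and 0.06 beside the hair score.

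Some Adamts genes had high levels where hair scores were high, and these were named after their values were seen. Adamts20, a versicanase known from mouse coat pigment mutants, ran from 14.5 to 26.5 CPM in negative replicates 2 to 6, but was at 3.86 CPM in negative replicate 1 and 3.72 CPM in negative replicate 7. Its levels were 4.36, 4.85, 4.42 and 17.0 CPM in positive replicates 1 to 4. Adamts18 had 3.09 CPM in negative replicate 1, 2.66 CPM in negative replicate 7, 15.7 to 23.8 CPM in the other 5, and 5.11, 4.73, 4.73 and 19.0 CPM in positive replicates 1 to 4. Within each group, the samples with a hair score below 0 were thus low in both genes and the others were high. Adamts3, a procollagen II and VEGF-C processing protease, had 1.54 to 6.92 CPM in the negative and 1.15 to 7.02 CPM in the positive group, and Adamts19 had 0.13 to 3.58 and 0.75 to 1.76 CPM. The log2 fold changes were -1.05 for Adamts20, -0.89 for Adamts18, -0.64 for Adamts3 and -0.96 for Adamts19. Fitted beside the hair score, all 4 were above 0, at 0.17, 0.52, 0.28 and 0.19. The part of hair follicle RNA in these levels was not tested beyond that fit.

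The other tested Adamts genes had log2 fold changes from -0.33 (Adamts6) to 0.54 (Adamts8), and none had an unadjusted p under 0.05. Adamts6 was also lower where the hair score was below 0, at 4.32 to 5.66 CPM, beside 6.10 to 9.02 CPM in the other samples. Fitted beside the hair score, its log2 fold change was -0.01. Adamts12, which cuts cartilage oligomeric matrix protein, was steady, at 36.2 to 54.1 CPM in the negative and 42.6 to 55.8 CPM in the positive group. Adamts9 and Adamts15, both versicanases, averaged 8.91 and 9.05 TPM, with log2 fold changes of 0.39 and 0.38. Adamts10, a protease of the fibrillin microfibrils, averaged 19.3 ± 4.21 CPM in the negative (SD, n = 7) and 18.5 ± 3.12 CPM in the positive samples (SD, n = 4). Adamts13, the von Willebrand factor protease made mainly in liver, had 0 to 2 counts per sample, and Adamts16 had 0 to 7, so neither was tested.

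Timp3, which is known to be made in the hair follicle, lies on chromosome 10 (86300412 to 86349505). It had 220.2, 564, 525, 512, 494, 521 and 206 CPM in negative replicates 1 to 7 and 225, 224, 228 and 404 CPM in positive replicates 1 to 4. The 5 samples with a hair score below 0, from both groups, lay between 206 and 228 CPM, and the other 6 lay between 404 and 564 CPM. The log2 fold change was -0.69 ± 0.31 (SE; edgeR adjusted p = 0.293), and it was -0.07 when the hair score was a covariate. The contribution of hair follicle RNA was not tested otherwise.

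**Figure D3:**
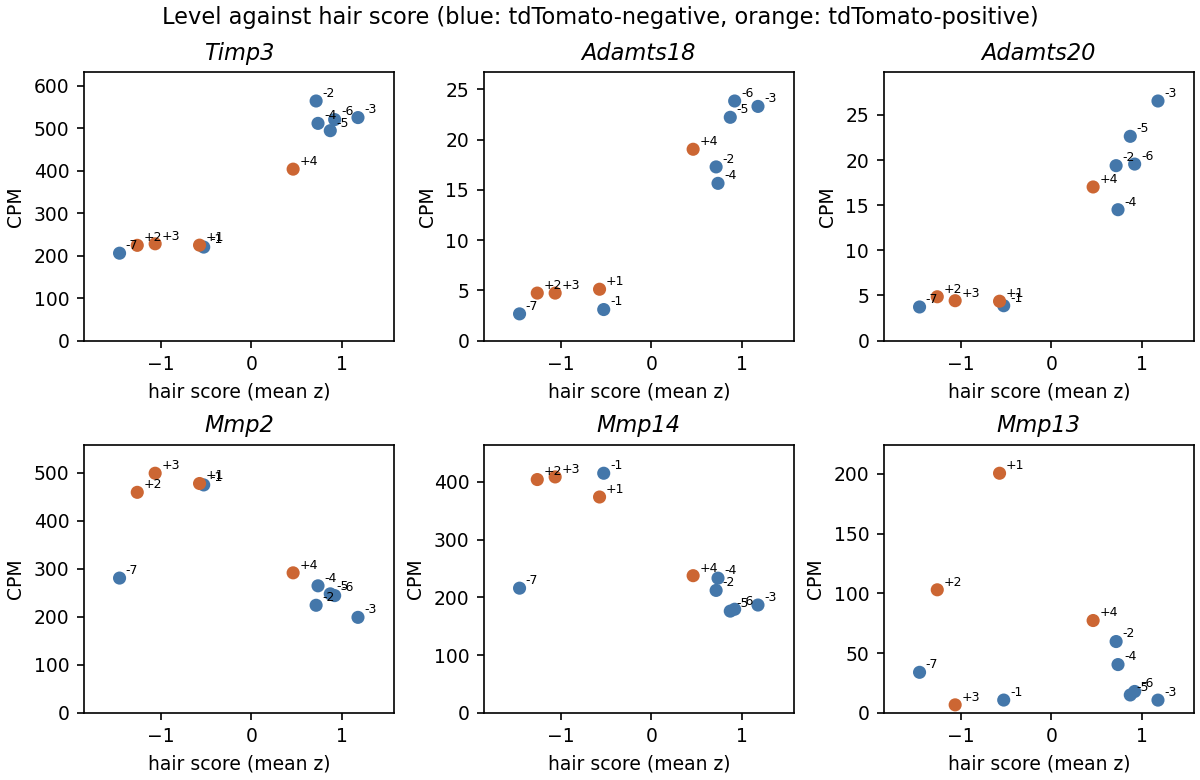
Level in CPM (vertical axis) against the hair score (horizontal axis, mean z-score of 27 hair markers) for 6 members, with negative samples in blue and positive samples in orange, each labelled by its sign and replicate. Timp3, Adamts18 and Adamts20 are low in the 5 samples with a score below 0 and high in the other 6, Mmp2 and Mmp14 are highest in 4 of those 5, and Mmp13 follows neither side.

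Timp2 had 406, 277, 302, 299.5, 241, 262 and 283 CPM in negative replicates 1 to 7 and 352, 355, 347 and 261 CPM in positive replicates 1 to 4. As for Mmp14 and Adamts2, negative replicate 1 was the highest and positive replicates 1 to 3 came next. The log2 fold change was 0.15 ± 0.14 (SE; edgeR adjusted p = 0.572). It was 0.26 without negative replicate 1, 0.25 without positive replicate 4 and 0.01 beside the hair score. Timp1, the inhibitor that rises with inflammation and wounding, had 11.5, 15.9, 4.85, 10.6, 14.1, 23.4 and 31.4 CPM in the negative replicates. Positive replicates 1 to 4 were at 30.8, 32.3, 9.56 and 18.1 CPM. Only positive replicate 2 lay above the negative group, and the fitted log2 difference was 0.50 ± 0.43 (SE; edgeR adjusted p = 0.554). Leaving out negative replicate 7 or positive replicate 1, 2 or 3 gave 0.76, 0.32, 0.29 and 0.77, and beside the hair score it was 0.19. Timp4 was low, with 2.83, 2.09, 2.83, 2.07, 1.62, 2.15 and 1.33 CPM in negative replicates 1 to 7 and 4.11, 2.30, 3.39 and 2.70 CPM in positive replicates 1 to 4. Its log2 fold change was 0.55 ± 0.24 (SE; edgeR adjusted p = 0.283).

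Proteases were set against inhibitors by the summed TPM of the 42 Mmp and Adamts genes and of the 4 Timp genes. The protease sum was 969, 558, 427, 635, 506, 517 and 686 TPM in negative replicates 1 to 7 and 1165, 1079, 909.6 and 761 TPM in positive replicates 1 to 4. The inhibitor sum was 290 to 352 TPM in the negative and 278 to 315 TPM in the positive group. It varied less than the protease sum: 323 ± 25.3 TPM (SD, n = 7) against 614 ± 178 TPM (SD, n = 7) in the negative group. The ratio was 3.19, 1.58, 1.38, 1.81, 1.65, 1.51 and 2.36 in negative replicates 1 to 7 and 3.78, 3.48, 3.28 and 2.42 in positive replicates 1 to 4. All 4 positive samples lay above 6 of the 7 negative samples, and positive replicate 4 lay under negative replicate 1. The means were 1.93 ± 0.64 (SD, n = 7) and 3.24 ± 0.59 (SD, n = 4), a difference of 0.75 on the log2 scale, given with no test since the sum runs over chosen genes. Both negative samples with a hair score below 0, replicates 1 and 7, had the 2 highest ratios of their group, and positive replicate 4, whose score was above 0, the lowest of its own. The part of tissue composition in the ratio was not tested.

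Mmp2 and Mmp14 together made up 48.7% ± 4.06 (SD, n = 7) of the protease sum in the negative and 48.6% ± 9.50 (SD, n = 4) in the positive group. Positive replicate 3, with low Mmp3, Mmp9 and Mmp13, stood at 62.6%. Timp1 made up 3.34% to 26.3% of the inhibitor sum in the negative and 8.43% to 23.6% in the positive group.

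**Figure D4:**
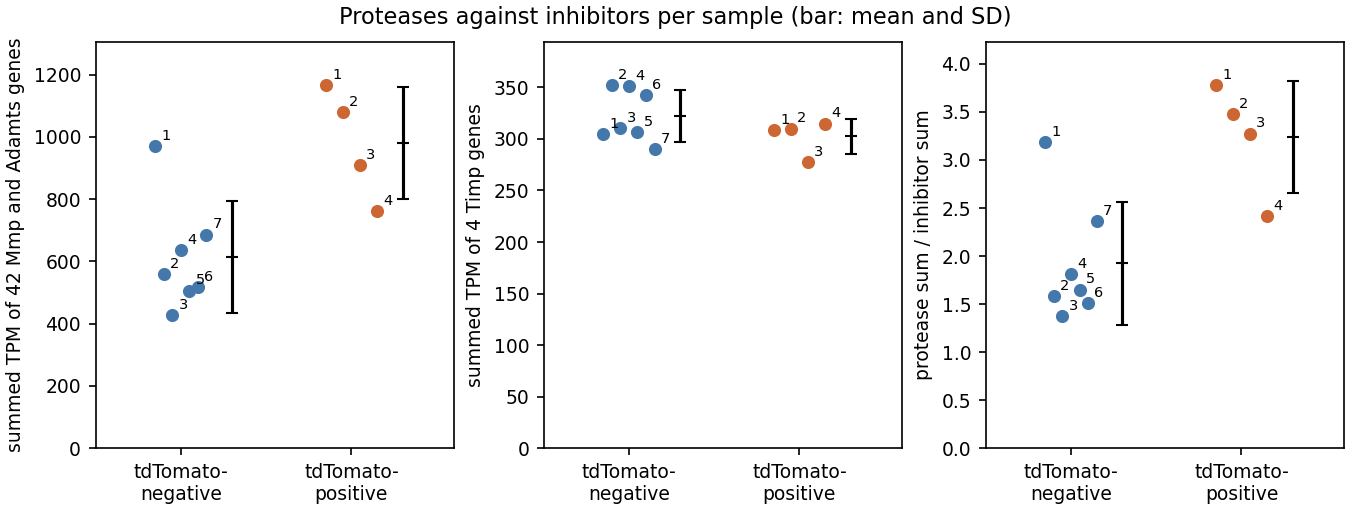
Summed TPM of the 42 Mmp and Adamts genes (left), of the 4 Timp genes (middle) and their ratio (right) per sample, negative in blue (n = 7) and positive in orange (n = 4), with the replicate number beside each point and mean and SD as bars. The inhibitor sums of both groups cover 278 to 352 TPM, while the protease sums run from 427 to 1165 TPM.

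Across the 11 samples the tested members therefore showed several orders of samples. Positive replicate 1 held the highest level of 13 of the 38 tested members, among them Mmp3, Mmp8, Mmp9, Mmp10, Mmp12, Mmp13, Mmp19, Adamts1, Adamts4 and Adamts5, while 13.8% of all tested genes were highest there. Negative replicate 1 held the highest level of 8, among them Mmp11, Mmp14, Mmp16, Adamts2 and Timp2, beside 10.6% of all tested genes. Negative replicate 3, which had the highest hair score, held the lowest level of 10 tested members (for Mmp10 tied at 0 with 2 other samples), beside 17.3% of all tested genes. Fitted beside the hair score, 6 members had an unadjusted p under 0.05, all with higher fitted levels in the positive group (Mmp3, Mmp8, Mmp10, Mmp13, Timp4 and Adamts18), where 3.03% of all tested genes were higher and 4.39% lower at that level. The log2 fold changes in that fit were 1.19 for Mmp3, 1.30 for Mmp8, 2.31 for Mmp10 and 1.85 for Mmp13. The median over tested members was 0.21 in that fit. For the tested Mmp genes the median was 0.33, and Mmp11, Mmp15 and Mmp17 were fitted below 0, at -0.05, -0.13 and -0.16.

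**Figure D5:**
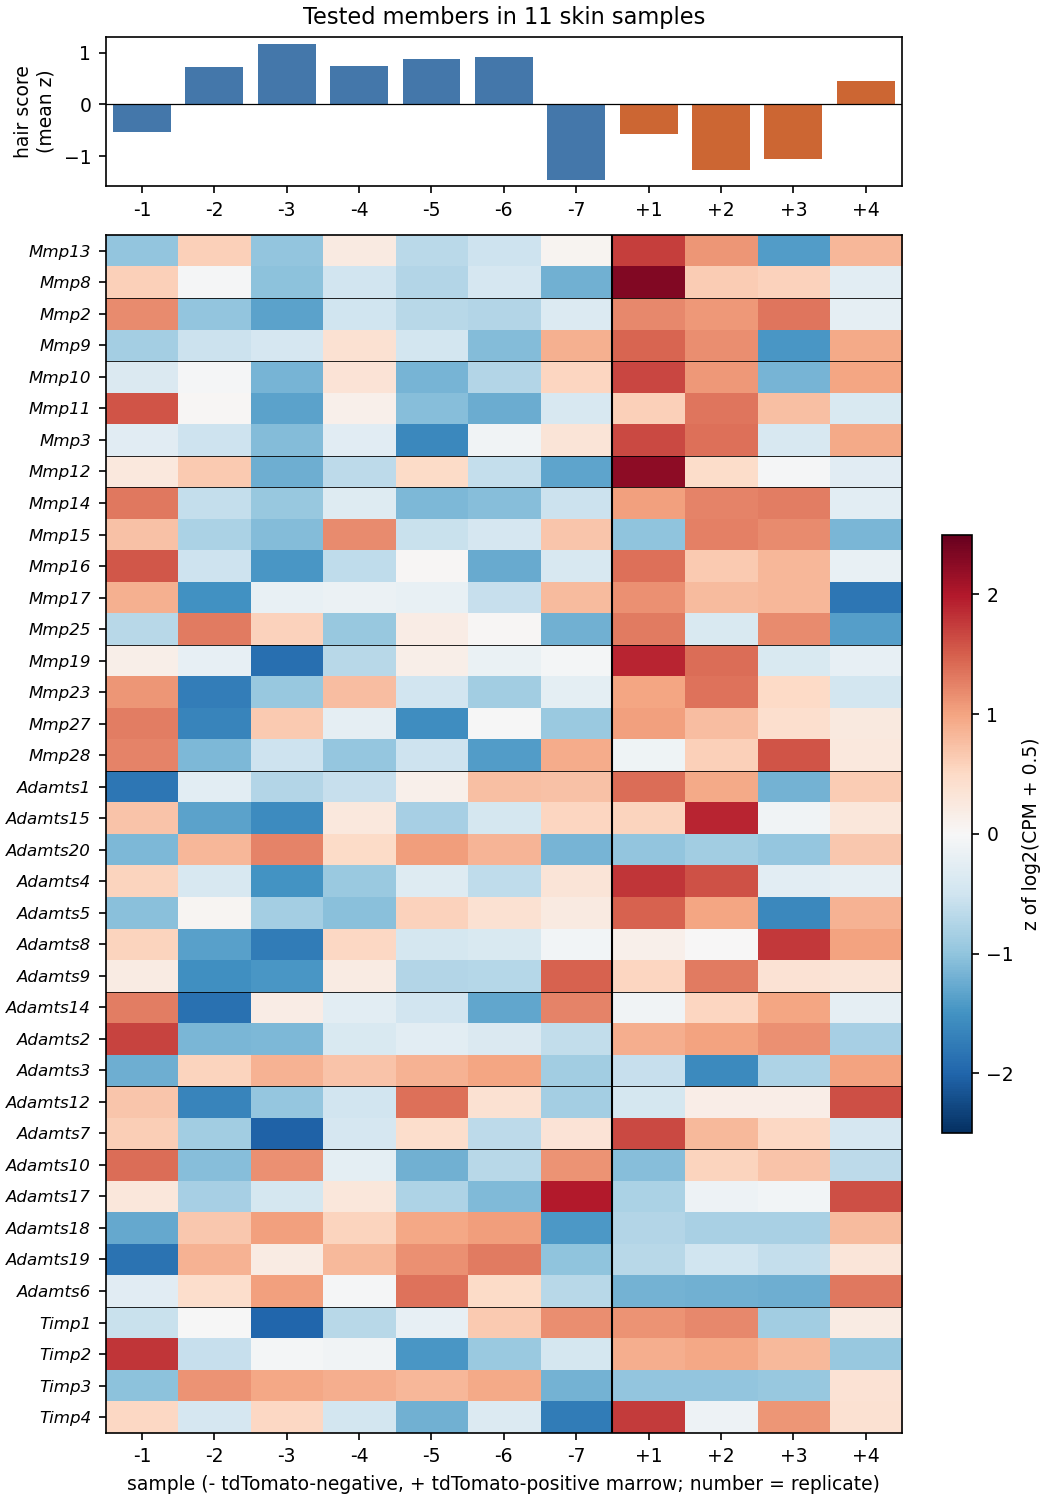
Top: hair score of each of the 11 samples. Bottom: z-scores of log2(CPM + 0.5) for the 38 tested members (rows, by role) in 7 negative and 4 positive samples (columns, red high, blue low). Mmp13, Mmp9 and Mmp10 are red in positive replicates 1, 2 and 4 and blue in positive replicate 3, Mmp14, Mmp11 and Adamts2 are also red in negative replicate 1, and Timp3, Adamts18 and Adamts20 follow the bars of the hair score.

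Other genes of the pathway were counted by lists, beside which stand 48.6% of all tested genes fitted above 0, 7.05% higher and 9.73% lower at an unadjusted p under 0.05. With so few genes a list, counts of 1 lie near these shares. Fitted beside the hair score, the list medians were 0.10 for ADAM proteases, 0.03 for ADAMTS-like genes, 0.14 for activating proteases, 0.28 for other inhibitors, 0.13 for matrix substrates and 0.61 for cytokines. Of 8 ADAM proteases, the membrane-bound sheddases, all 8 were fitted above 0 (median 0.19 on the log2 scale), and 1 had an unadjusted p under 0.05, Adam19, at 43.7 ± 3.14 CPM (SD, n = 4) beside 34.5 ± 5.17 CPM (SD, n = 7). Of the 6 ADAMTS-like genes, which carry no protease domain, 4 lay above 0 and none had an unadjusted p under 0.05. In the list of activating proteases, which also held the receptor gene Plaur, 7 of 9 tested genes lay above 0, with a median of 0.20. Bmp1, the procollagen C-proteinase, had 125 ± 16.7 against 109.5 ± 6.13 CPM. All 7 tested genes in the list of other inhibitors, which also held Pcolce, an enhancer of the procollagen C-proteinase, lay above 0. Serpinb2, an inhibitor of plasminogen activators, averaged 102 ± 42 CPM in the positive (SD, n = 4) and 57.3 ± 10.5 CPM in the negative samples (SD, n = 7), and Reck, a membrane-anchored Mmp inhibitor, had 23.2 ± 3.0 against 19.1 ± 1.54 CPM.

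The AP-1 subunits, whose motif stands before 7 of the 10 cluster genes, mostly had fitted values below 0. Of 7 genes 6 lay below 0, with a median of -0.36. An unadjusted p under 0.05 was found for 3 of these, Jund, Jun and Fosl2, where 9.73% of all tested genes were lower at that level. Jun averaged 109 ± 8.23 CPM in positive samples (SD, n = 4) and 140.3 ± 23.6 CPM in negative samples (SD, n = 7). In the fit with the hair score the median of the list was -0.06. Of the listed cytokines known to act on Mmp genes and the membrane protein gene Bsg, 6 of 7 tested lay above 0. Their median was 0.49. Tnf was at 1.95 to 17.6 CPM in the positive group (mean 6.57 ± 7.43, SD, n = 4), with an SD above its mean. In the negative group Tnf was at 1.2 to 4.04 CPM (mean 2.68 ± 1.07, SD, n = 7), so the ranges overlapped. Il1a was at 17.1 to 42 CPM in the positive and 10.5 to 25.0 CPM in the negative group. Of 18 tested matrix substrates 16 lay above 0, with a median of 0.24. Decorin (Dcn), a collagen-binding proteoglycan, averaged 672 ± 154 CPM in the positive (SD, n = 4) and 464 ± 67.6 CPM in the negative samples (SD, n = 7), and the epidermal syndecan Sdc1 had 499.7 ± 38.6 against 679 ± 103 CPM. None of the genes in these lists passed edgeR's test over all genes.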

How the data were processed

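Per the submitters' processing notes, the tools were RSEM, Trim Galore and bcl2fastq, with GRCm38 as genome build. As to versions, aligner and strand: not given in the sources used here. Expected counts, as deposited, are RSEM's estimated reads per gene, not normalized, with reads of similar genes divided between them. Deposited TPM is scaled by effective length, and the deposited effective lengths served for 1 alternative; FPKM, deposited by the authors in the same files, was not used.

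Counts were rounded and tested with edgeR 4.0.16 (filterByExpr with minimum count 10 and minimum total 15, TMM factors, glmQLFit in legacy mode, group as the only term, Benjamini-Hochberg over 14588 genes, R 4.3.3). CPM use TMM-scaled totals of the tested genes. Each SE is the size of the log2 fold change over the root of its F statistic. A count of 0 allows up to 3 counts, for counting error only. Alternatives were DESeq2 1.42.0, limma 3.58.1 (voom, and log2(TPM + 1) or log2(TPM + 0.1)), other scalings and filters, a hair score covariate, a replicate block, and fits that omit 1 sample. The fit was tested on simulated counts.

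The members and all lists were chosen with earlier results of these data known, so no list has a test of its own. Values in every sample are given for the Timp genes, the 10 Mmp or Adamts genes with the highest mean TPM and every member with an unadjusted p under 0.05; other pathway genes are named at that p only, up to 3 a list. Protein sequences were not used here.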

Additional observations from a re-analysis of the deposited data

Results flagged for a closer look

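A sample far from the rest of its group, by the ratio of its gap to the group's range, was found in 8 of 38 sets of values (named members and the protease to inhibitor ratio in each group), where chance flags about 1 set in 20. The sets are not independent, since 5 flags are of 1 sample. Negative replicate 1 stood above the other negative samples in Adamts2 (224 CPM, others 134 to 157), Mmp11 (155 CPM, others 24.0 to 61.2), Mmp14 (415 CPM, others 176 to 233), Mmp2 (475 CPM, others 199 to 281) and Timp2 (406 CPM, others 241 to 302). It also had the highest fibroblast marker sum. Positive replicate 4 stood under the other positive samples in Adamts2 (141 CPM, others 194 to 203) and Timp2 (261 CPM, others 347 to 355) and above them in Timp3 (404 CPM, others 224 to 228). It was the 1 positive sample with a hair score above 0.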

How the results depend on the processing

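Of 18 members with values in every sample, 17 kept the sign of their fold change in all alternatives run, up to 23 each. Mmp11 did not: its log2 fold change was -0.051 with the hair score as a covariate, and the cause was not tested. Of the Mmp genes outside these 18, Mmp15 and Mmp17 also fell below 0 with that covariate, at -0.13 and -0.16. The number of members past the adjusted threshold was 0 in the edgeR, plain voom and limma-trend fits, 1 with DESeq2 and 12 with quality-weighted voom, which called 14.3% of all tested genes. The number at an unadjusted p under 0.05 was 11, where 16.8% of all tested genes were under it. It was 6 with the hair covariate (7.42% of all genes), 7 with voom (15.3%), 24 with quality-weighted voom (34.3%), 6 on log2(TPM + 0.1) (14.0%) and 4 to 22 when a sample was left out. The median over tested members was 0.39 and ranged from 0.26 to 0.45, and the log2 difference of the ratio was 0.75 and ranged from 0.67 to 0.92, when a sample was left out. With the replicate number as a block, 0 members passed, 10 had an unadjusted p under 0.05 and the median was 0.42. In that fit the log2 fold change was 1.05 for Timp1 and 1.25 for Mmp13, beside 0.50 and 1.85 without the block. The deviations of same-numbered samples from their group means had correlations of -0.04, -0.14, -0.05 and 0.34 in 4 pairs. The last lay within the range of positive replicate 4 with negative samples of other numbers, -0.67 to 0.53. So few pairs cannot decide whether same-numbered samples share a batch, and the labels name none. DESeq2 left 1 member's adjusted p as NA. Members that reached about 10 counts in too few samples could not be tested at this depth.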
